A study of Mus musculus with 6 samples.

Results

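The 41 cell cycle and DNA replication genes described here were chosen by name out of 21887 protein-coding genes of the mouse build GRCm38 (mm10). No measured value set the choice, but earlier results of these data were known when it was made. They fall into 14 genes that act at the entry into S phase (G1/S), 13 genes of DNA replication and 14 genes of mitosis. The values are summits, the 1 bp positions of highest signal within a peak, from chromatin immunoprecipitation of YAP and of H3K27ac, an acetylation of histone H3 found at active promoters and enhancers. Each summit was assigned to the protein-coding gene with the nearest start or end within 50 kb. It is called proximal within 1 kb of that gene's start or end, and distal beyond 1 kb.

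Tumor mice carried CluCreERT2, R26rtTA and HA-Yap+, that is a tamoxifen-activated Cre recombinase at the Clu locus, a doxycycline-dependent transactivator at Rosa26 and an HA-tagged Yap. Normal mice were labelled WT. The same treatment text, a tamoxifen dose of 2 mg over 5 days followed by 14 days of doxycycline diet, is attached to the samples of both groups. Gastric corpus epithelium was released with EDTA and never cultured. YAP was profiled in 2 tumor and 2 normal libraries, and H3K27ac in 1 tumor and 1 normal library. Cre at Clu reaches the cells that express Clu, so the epithelium of a tumor mouse can hold cells that Cre did not reach. The labels give no age, no number of animals and no pooling, so p-values measure only the spread between these libraries, which may be technical.

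The summit lists differed in length, and sequencing depth is unknown. YAP tumor 1 and tumor 2 held 38268 and 53904 summits, against 1654 and 2141 in normal 1 and normal 2. H3K27ac had 66896 summits in the tumor and 22574 in the normal library. Of all summits, 30.3% in tumor 1 and 24.3% in tumor 2 lay within 1 kb of a gene end, against 1.09% in normal 1 and 32.3% in normal 2, so the normal YAP libraries are unlike each other. The words inside the peak names go against the labels of 2 YAP libraries: tumor 1 carries the word of the normal H3K27ac library, and normal 2 carries the word of the tumor H3K27ac library. Groups are those of the labels, and the main counts that rest on tumor 1 or normal 2 are also given for the other library alone or regrouped. Of 14 gastric epithelial marker genes, 13 in the full tumor and 14 in the normal H3K27ac list had at least 1 summit. Gkn1 was the gene without any in the full tumor list. Their summits summed to 38 in the tumor list, 16 after that list was shortened to the 22574 best-scored summits, and 37 in the normal list. In the shortened tumor list Muc1, Gkn1, Gkn2, Muc5ac and Pgc had no summit. Markers of other cells had 8 tumor and 3 normal summits for 4 immune genes (3 and 3 at equal length, Cd3e at 0 in both), 29 and 13 for 7 stromal and endothelial genes (4 and 13), and 3 and 0 for 3 squamous genes (0 and 0, Trp63 at 0 in both). The part of these cells in the values below was not tested. In bulk epithelium, more cells of a type and more of a mark per cell cannot be told apart.

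The cell cycle is driven by cyclins that activate cyclin-dependent kinases (CDKs) in turn. D-type cyclins with CDK4 and CDK6, then E-type cyclins with CDK2, release E2F transcription factors from the retinoblastoma proteins, and E2F turns on the genes that copy DNA. Genes of mitosis peak later and are controlled through the CHR promoter element, bound by the DREAM and MuvB complexes with B-MYB and FOXM1. YAP is a coactivator without a DNA-binding domain of its own. It is held back by the Hippo kinases and binds DNA mainly through TEAD factors, often together with AP-1 and often at distal enhancers.

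Promoters of 6 members are printed below because they belong to the members, among those with a promoter sequence, whose proximal YAP site ranked best in both tumor libraries. Each runs over 300 bases from 250 before to 50 after the transcript start on the gene's own strand, from RefSeq (GRCm38.p6). Capitals mark matches to the E2F, CHR and CCAAT letters spelled out further on, on either strand. The windows are Aurka chr2:172370521-172370820 (minus strand), Cdk4 chr10:127063285-127063584 (plus), E2f3 chr13:29986014-29986313 (minus), Rrm1 chr7:102441445-102441744 (plus), Mki67 chr7:135716330-135716629 (minus) and Bub1b chr2:118597961-118598260 (plus). The YAP site lies within the window in 5 of them, and 317 bp upstream of the start, outside it, at Aurka.
Aurka: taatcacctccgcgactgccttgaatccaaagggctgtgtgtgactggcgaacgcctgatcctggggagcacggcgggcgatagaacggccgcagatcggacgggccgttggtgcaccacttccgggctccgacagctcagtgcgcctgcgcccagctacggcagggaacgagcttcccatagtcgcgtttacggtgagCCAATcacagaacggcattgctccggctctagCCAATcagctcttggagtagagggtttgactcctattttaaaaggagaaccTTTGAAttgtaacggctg
Cdk4: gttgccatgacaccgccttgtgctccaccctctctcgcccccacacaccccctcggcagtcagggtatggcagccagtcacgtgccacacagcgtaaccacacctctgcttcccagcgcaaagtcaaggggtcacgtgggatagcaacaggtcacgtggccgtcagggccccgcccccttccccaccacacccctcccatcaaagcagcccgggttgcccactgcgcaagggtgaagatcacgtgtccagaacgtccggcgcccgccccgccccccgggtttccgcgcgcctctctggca
E2f3: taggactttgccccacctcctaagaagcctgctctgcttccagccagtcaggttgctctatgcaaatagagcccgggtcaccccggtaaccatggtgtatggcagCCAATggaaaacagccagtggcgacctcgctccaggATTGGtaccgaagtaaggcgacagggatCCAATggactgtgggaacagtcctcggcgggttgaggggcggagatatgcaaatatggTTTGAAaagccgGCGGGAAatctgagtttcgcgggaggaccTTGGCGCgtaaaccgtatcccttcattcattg
Rrm1: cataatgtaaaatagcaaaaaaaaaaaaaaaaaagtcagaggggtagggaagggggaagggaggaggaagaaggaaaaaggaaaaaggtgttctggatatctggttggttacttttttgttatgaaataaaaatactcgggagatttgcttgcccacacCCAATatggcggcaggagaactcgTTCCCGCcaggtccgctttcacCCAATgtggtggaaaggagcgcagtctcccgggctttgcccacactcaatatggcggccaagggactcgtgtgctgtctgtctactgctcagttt
Mki67: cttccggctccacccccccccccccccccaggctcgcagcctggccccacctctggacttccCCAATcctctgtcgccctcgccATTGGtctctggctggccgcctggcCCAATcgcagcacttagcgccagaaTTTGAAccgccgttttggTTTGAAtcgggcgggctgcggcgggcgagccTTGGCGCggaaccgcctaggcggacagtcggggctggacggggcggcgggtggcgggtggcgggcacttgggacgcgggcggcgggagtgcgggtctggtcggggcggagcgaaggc
Bub1b: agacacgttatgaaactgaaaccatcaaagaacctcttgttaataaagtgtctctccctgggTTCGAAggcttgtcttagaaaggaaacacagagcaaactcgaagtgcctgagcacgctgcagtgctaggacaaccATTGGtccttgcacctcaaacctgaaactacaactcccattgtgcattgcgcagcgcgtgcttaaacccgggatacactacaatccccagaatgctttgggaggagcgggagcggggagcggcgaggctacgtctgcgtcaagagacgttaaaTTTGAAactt

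Nearly all YAP summits at the cell cycle genes were in the tumor libraries. Tumor 1 had 86 and tumor 2 had 113 summits at members, against 0 in normal 1 and 3 in normal 2. In each tumor library 38 of the 41 members had a summit, in a background of 66.2% of all genes in tumor 1 and 70.8% in tumor 2. In normal 1 no member had one (background 2.79%), and in normal 2 there were 3, Ccne1, E2f3 and E2f7 (background 5.98%). The groups did not overlap. Tumor libraries averaged 99.5 ± 19.1 summits at members and normal libraries 1.5 ± 2.12 (SD, n = 2 each), a difference of 5.64 in log2(summits + 1) with an exact two-sided permutation p = 0.33, the smallest that 2 against 2 libraries allow.

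The excess was read against the length of the lists. Summed over libraries, the members had 199 tumor and 3 normal summits, a ratio of 66.3 (counting interval 22.4 to 324), while over all summits the ratio was 24.3. That ratio, like the shares below, also counts summits with no gene within 50 kb, which were more frequent in the normal libraries. Summits assigned to any gene were 31756 of 38268 in tumor 1 and 44350 of 53904 in tumor 2. In normal 1 they were 677 of 1654, and in normal 2 they were 1491 of 2141. The ratio of 24.3 is thus too low a background for the members. As a share of a library, the members held 0.225% (Wilson 95% interval 0.182 to 0.277%) of tumor 1 and 0.210% (0.174 to 0.252%) of tumor 2. In normal 1 the share was 0 of 1654, which allows up to 0.181%, and in normal 2 it was 0.140% (0.0477 to 0.411%). Shares averaged 0.217 ± 0.0107% in tumor and 0.0701 ± 0.0991% in normal libraries (SD, n = 2 each), a difference of 0.147 percentage points (exact two-sided permutation p = 0.33). When every list was shortened to its 1654 best-scored summits, tumor 1 held 2 at members (Aurka and Ccne1) and tumor 2 held 2 (Aurka and Rrm1), against 0 in normal 1 and 2 in normal 2 (Ccne1 and E2f7). The groups then overlapped, with a difference of 0.79 in log2(summits + 1) (exact permutation p = 1.0). Regrouped by the words in the peak names, tumor 2 and normal 2 against tumor 1 and normal 1, the difference was 1.19 (exact permutation p = 0.667).

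**Figure D1:**
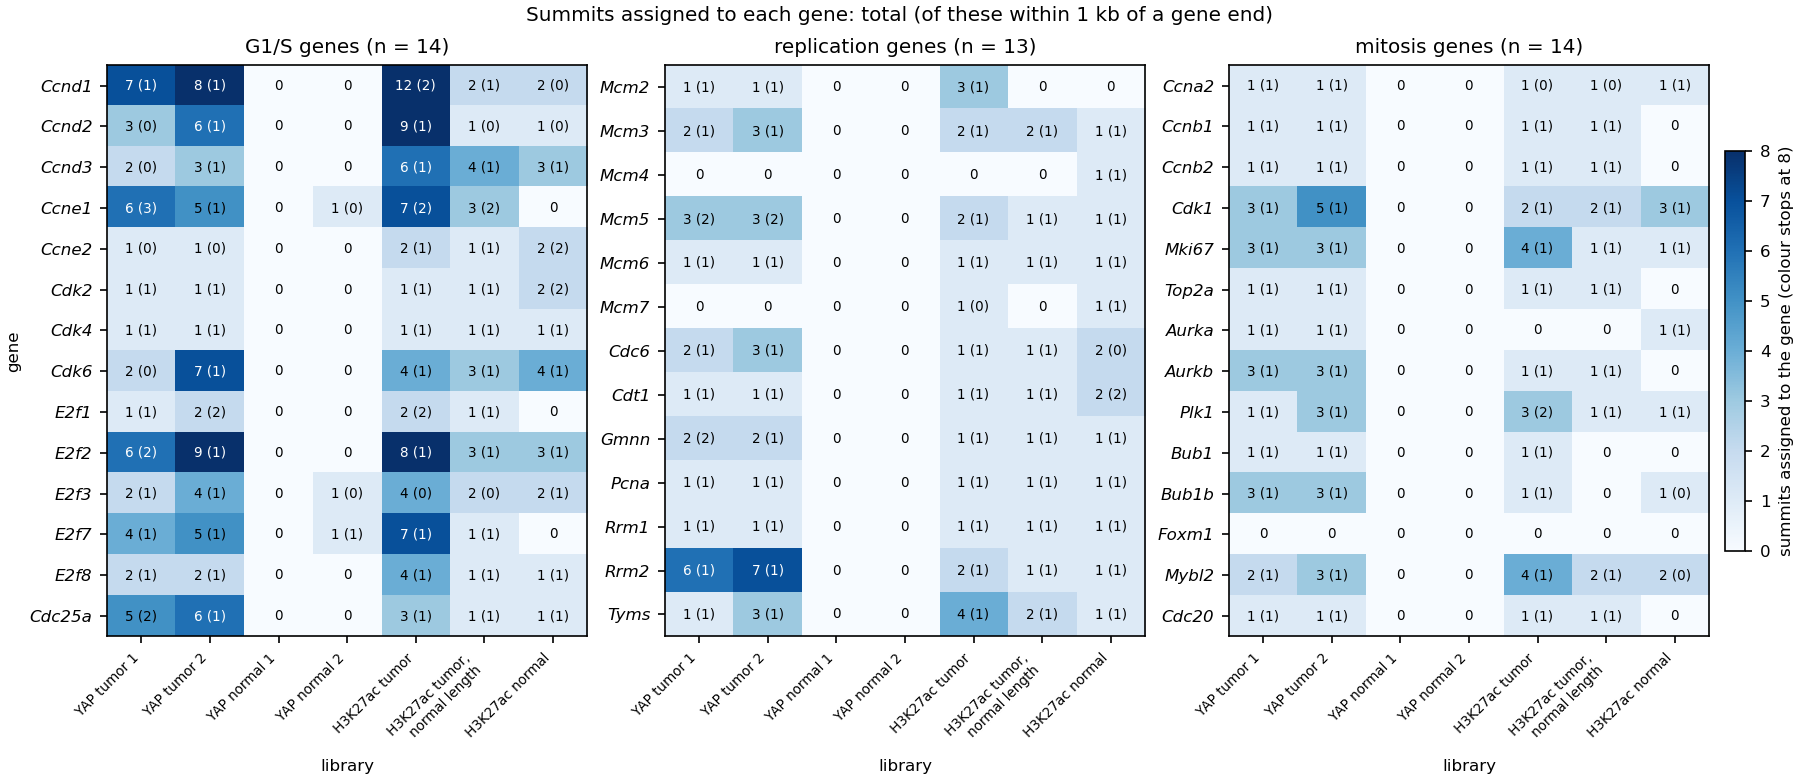
Number of summits assigned to each of the 41 genes (rows, by phase) in each library (columns, tumor left of normal), with the number within 1 kb of the gene's start or end in brackets and the colour scale for the total. The YAP tumor columns are filled for 38 members each, the normal 1 column is 0 throughout and normal 2 has 1 summit each at Ccne1, E2f3 and E2f7.

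To use both tumor libraries, summits of tumor 1 and tumor 2 within 200 bp of each other were matched one to one and their midpoint is called a YAP site. Of 25076 such sites assigned to genes, 75 were at 36 of the 41 members, in a background of 60.0% of all genes with a site. No YAP site of both normal libraries was at a member (background 0.950%). The phases were not tested against each other. G1/S genes had 34 sites at 13 of 14 genes, 8 proximal and 26 distal. Replication genes had 19 sites at 10 of 13 genes, 11 proximal and 8 distal. Mitosis genes had 22 sites at 13 of 14 genes, 13 proximal and 9 distal.

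The proximal share was 23.5% (Wilson 95% interval 12.4 to 40.0%) for G1/S genes, 57.9% (36.3 to 76.9%) for replication genes and 59.1% (38.7 to 76.7%) for mitosis genes, beside 42.7% (32.1 to 53.9%) for all members and 38.2% for the sites of all genes. In tumor 1 alone, 14 of 43 G1/S, 13 of 21 replication and 13 of 22 mitosis summits were proximal. In tumor 2 alone they were 14 of 60, 12 of 26 and 13 of 27, so that proximal summits made up the larger number at replication and mitosis genes only in tumor 1 and in the sites of both libraries. Sites at 1 gene are not independent, and the intervals cover counting error only. At least 1 proximal site was found at 31 members (background 41.4%), of which 8 were G1/S, 10 replication and 13 mitosis genes. At least 1 distal site was found at 20 members (background 38.2%), of which 11 were G1/S, 4 replication and 5 mitosis genes. With tumor 1 alone the genes with a proximal summit numbered 10, 11 and 13 (background 47.5%), and with tumor 2 alone 13, 11 and 13 (background 52.0%). The number of G1/S genes with a proximal site was thus lower when both libraries were required. With summits matched within 500 bp it was 10, where E2f1 and Pcna also gain a site. All sites were distal at 5 members (background 18.6%), the G1/S genes Ccnd2, Ccnd3, Ccne2, Cdk6 and E2f2. All were proximal at 16 members (background 21.8%), 2 of them G1/S, 6 replication and 8 mitosis genes. At 12 members (background 13.3%) there were 3 or more sites. Just inside the 1 kb limit were the sites of E2f8 (901 bp) and Ccna2 (903 bp), and just outside it sites of Cdc25a (1057 bp), Ccne2 (1094 bp) and Ccnd2 (1157 bp). The contrast between phases depends on this limit. With a limit of 2 kb, 13 of 34 G1/S sites were proximal, at 10 genes, while replication (11 of 19) and mitosis (13 of 22) did not change. With 500 bp the proximal sites numbered 7, 10 and 12.

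**Figure D2:**
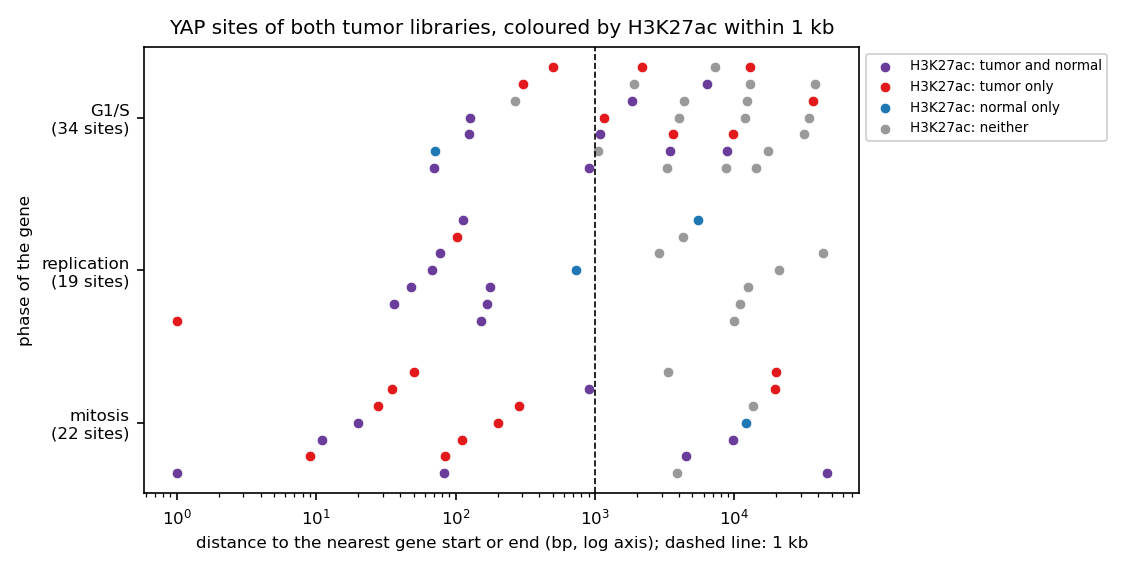
Distance of each YAP site of both tumor libraries from the nearer end of its gene (horizontal axis, log scale, bp) for the members of each phase, with the 1 kb limit of the proximal class. G1/S sites lie mostly right of the limit (26 of 34), while 11 of 19 replication and 13 of 22 mitosis sites lie left of it.

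Among the D-type cyclins, which start the G1 phase programme with CDK4 and CDK6, Ccnd1 had 7 and 8 YAP summits in tumor 1 and tumor 2, against 0 and 0 in normal 1 and normal 2. It held 5 sites on chromosome 7, the proximal one at 144929666, 265 bp outside the gene, and others at 144937674, 144941663, 144943428 and 144977387. Ccnd1 is thus among the members with the most sites. No strand or transcript start was available for Ccnd1, so upstream and downstream were not told apart. The sites at 144941663 and 144943428 lay 1832 and 3597 bp outside the gene, past the end opposite the proximal site. The first had an H3K27ac summit at 268 bp in tumor and 289 bp in normal epithelium, the second one at 150 bp in the full tumor list, 2033 bp in the tumor list shortened to normal length and 2054 bp in normal epithelium. Ccnd2 had 3 and 6 summits in tumor 1 and tumor 2, against 0 in each normal library, and 3 sites inside the gene. Ccnd3 had 2 and 3, against 0 and 0, and 2 sites inside the gene. Its stronger site, at 47511377 on chromosome 17, ranked 5670 and 4250 and had H3K27ac at 109 bp in tumor and 217 bp in normal epithelium. A rank here is the place of the summit by score within its own list, 1 being the best.

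Ccne1 encodes cyclin E1, the partner of CDK2. It had 6 and 5 summits in tumor 1 and tumor 2, against 0 in normal 1 and 1 in normal 2, and it is the member where H3K27ac differed most at equal list length. Its best-ranked site, at 38085118 on chromosome 7, lay 12866 bp from the gene and ranked 778 and 2046. Tumor H3K27ac lay 130 bp from that site and the nearest normal H3K27ac summit 65838 bp away, but in the tumor list at normal length the nearest one was 22043 bp away. The site at 38061356, 36628 bp from the gene, was 7 bp from a tumor H3K27ac summit, also in the shortened list, and 42076 bp from a normal one. The 1 normal 2 summit of Ccne1, at 38061296, stood 62 and 58 bp from the tumor 1 and tumor 2 summits of that site. Ccne1 had 7 H3K27ac summits in the tumor list, 3 of them among the 22574 best, against 0 in normal epithelium. Ccne2, the other E-type cyclin, had 1 summit in each tumor library and a site 1094 bp inside the gene.

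The G1 kinases carried fewer sites. Cdk4 had 1 summit in tumor 1 and 1 in tumor 2, against 0 and 0, at a site 70 bp upstream of the start that ranked 2250 and 1717. Cdk2 likewise had 1 and 1, against 0 and 0, at a site 127 bp upstream that ranked 5156 and 4909. Both promoters had H3K27ac within 1 kb in tumor and in normal epithelium. Cdk6 had 2 and 7 summits in tumor 1 and tumor 2, against 0 and 0. Its site at 3344438 on chromosome 5 is distal by the distance from the gene's outer end, yet lies 545 bp downstream of a RefSeq transcript start. Cdc25a, the phosphatase that activates CDK2, had 5 and 6 summits, against 0 and 0, and 4 sites, the proximal one 63 bp downstream of the start.

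Of the E2F genes, E2f2 had 6 and 9 summits in tumor 1 and tumor 2, against 0 and 0, and 4 sites, all distal, between 3995 and 11984 bp from the gene's nearer end. E2f1 had 1 and 2 summits, against 0 and 0, but no site, as its summits at 154570072 in tumor 1 and 154569863 in tumor 2 on chromosome 2, 180 and 29 bp from the gene's end, were 209 bp apart, just over the 200 bp limit. E2f3 had 2 and 4 summits in tumor 1 and tumor 2, against 0 in normal 1 and 1 in normal 2. Its proximal site, 72 bp upstream of the start, ranked 3602 and 2438 and had an H3K27ac summit within 1 kb in normal but not in tumor epithelium. The nearest tumor H3K27ac summit lay 2015 bp from that site. The normal 2 summit of E2f3, at 29885368 on chromosome 13, had no tumor YAP summit near it.

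The repressive E2Fs also held YAP. E2f7 had 4 and 5 summits in tumor 1 and tumor 2, against 0 in normal 1 and 1 in normal 2. Its proximal site, 304 bp upstream of the start, was 10 bp from a tumor H3K27ac summit, and no normal H3K27ac summit lay near it. The normal 2 summit, at 110745084 on chromosome 10, stood 31 and 72 bp from the tumor 1 and tumor 2 summits. E2f8 had 2 and 2 summits, against 0 and 0, and a proximal site 424 bp downstream of the start. Of the normal 2 summits at members, those of Ccne1 and E2f7, thus coincided with tumor sites in a library whose peak names carry the tumor word.

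The helicase genes Mcm2 to Mcm7 encode the ring that unwinds DNA at replication origins. Mcm2 and Mcm6 each had 1 summit in tumor 1 and 1 in tumor 2, against 0 and 0, with sites 102 and 48 bp downstream of their starts. The Mcm2 site ranked 36349 of 38268 summits in tumor 1, near the bottom of that list. Mcm3 had 2 and 3, against 0 and 0, with a proximal site 68 bp upstream, and Mcm5 had 3 and 3, against 0 and 0, with 2 proximal sites 773 bp upstream and 36 bp downstream. Mcm4 and Mcm7 had no summit assigned in any YAP library. Each has a close neighbour, however: a site at 15637690 on chromosome 16 lay 290 bp from Mcm4 and 246 bp from Prkdc, to which it was assigned, and ranked 1961 and 920. A site at 138171127 on chromosome 5 lay inside Mcm7, 984 bp from the gene's outer end and close to a RefSeq start of Mcm7 at 138171266. This site was 894 bp from Ap4m1, its assigned gene, and ranked 1027 and 757. In both tumor libraries these ranks are better than those of every site assigned to a replication gene.

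Cdc6 and Cdt1 load the helicase onto origins, and geminin (Gmnn) holds Cdt1 back. Cdc6 had 2 and 3 summits in tumor 1 and tumor 2, against 0 and 0. Cdt1 had 1 and 1, against 0 and 0, with a site 169 bp upstream of the start. Gmnn had 2 and 2, against 0 and 0, with 1 site inside the gene 152 bp from its end. All of these had H3K27ac within 1 kb of an end in tumor epithelium. Pcna, the sliding clamp, had 1 summit in each tumor library, against 0 and 0, 71 and 179 bp from an end of the gene but 250 bp apart, so they form no site.

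Ribonucleotide reductase makes the DNA precursors. Rrm2, its small subunit, had 6 and 7 summits in tumor 1 and tumor 2, against 0 and 0, and 6 sites, the most of any member. The proximal site of Rrm2 lay 177 bp downstream of the start. Its best-ranked site, at 24734994 on chromosome 12, was 20848 bp from the gene, ranked 2101 and 5012, and had no H3K27ac summit within 14960 bp in tumor or 26583 bp in normal epithelium. Rrm1, the large subunit, had 1 and 1, against 0 and 0, at 36 bp downstream of the start (ranks 4926 and 1627). Tyms, thymidylate synthase, had 1 and 3, against 0 and 0, with a site 94 bp downstream.

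Few distal YAP sites of replication genes had H3K27ac. Of these 8 sites, 5 at Rrm2 and 1 each at Mcm3, Mcm5 and Cdc6, 0 had a tumor H3K27ac summit within 1 kb, which allows a share of up to 37.5% by the limit of 3 counts and 32.4% by the Wilson 95% interval. In normal epithelium 1 did, that of Cdc6. Over all distal sites the tumor share was 34.8%, between these limits. At equal list length, 2937 of all 15485 distal sites had it, and again 0 of the 8. In tumor 2 alone, 2 of 14 distal summits of replication genes had tumor H3K27ac.

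Every mitosis gene had a YAP site of both tumor libraries within 1 kb of an end, 14 of 14, when sites were counted whatever gene they were assigned to. The same count was 12 of 13 for replication and 8 of 14 for G1/S genes, in a background of 46.5%. In tumor 1 alone the counts were 14 mitosis, 13 replication and 10 G1/S genes (background 53.0%), and in tumor 2 alone 14, 13 and 13 (background 57.5%). Aurka, the centrosome kinase Aurora A, had 1 summit in each tumor library, against 0 and 0. Its site, at 172370887 on chromosome 2, was the best-ranked proximal site of all members (1325 and 398), with H3K27ac at 128 bp in tumor and 262 bp in normal epithelium. Cstf1 and Fam210b have an end within 1 kb of Aurka, so this site cannot be told apart from that of a neighbour. Aurkb, Aurora B of the chromosomal passenger complex, had 3 and 3 summits, against 0 and 0.

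The cyclin and kinase genes of mitotic entry each had 1 proximal site. Ccnb1 and Ccnb2, the B-type cyclins, and Ccna2, cyclin A2, each had 1 summit in tumor 1 and 1 in tumor 2, against 0 and 0. Cdk1, the mitotic kinase, had 3 and 5, against 0 and 0, with the proximal site 11 bp downstream of the start and a distal one 46024 bp upstream that had H3K27ac at 309 bp in tumor and 334 bp in normal epithelium. Plk1, Polo-like kinase, had 1 and 3, against 0 and 0, at 20 bp downstream of the start. Cdc20, the activator of the anaphase-promoting complex, had 1 and 1, against 0 and 0, at 9 bp upstream.

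Bub1 and Bub1b encode spindle checkpoint proteins. Bub1 had 1 and 1 summits in tumor 1 and tumor 2, against 0 and 0, and Bub1b had 3 and 3, against 0 and 0. Their proximal sites lay 50 bp downstream and 44 bp upstream of the starts. Top2a, the topoisomerase that untangles chromosomes, had 1 and 1, against 0 and 0, at 18 bp downstream. Mki67, the proliferation marker Ki-67, had 3 and 3, against 0 and 0. Besides its proximal site at 153 bp upstream of the start, Mki67 had a site at 135735836 on chromosome 7, 19386 bp from the gene, with H3K27ac at 84 bp in the full tumor list, 19711 bp in the shortened one and 19697 bp in normal epithelium. Mybl2 (B-MYB) had 2 and 3, against 0 and 0, with a proximal site 24 bp upstream of a start. Foxm1 had 0 in all 4 YAP libraries, since the site at 128362737 on chromosome 6, 257 bp from Foxm1, was 174 bp from Rhno1 and was assigned to it. In all, 12 members have the end of another protein-coding gene within 1 kb, so their proximal sites cannot be told apart from those of a neighbour.

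Where a transcript start was available, proximal YAP sites of the members sat near it. The proximal sites of Ccnd1, Gmnn, Ccna2 and Aurkb could not be placed in this way. RefSeq gives a start for 33 members, 27 of which had 28 proximal sites, all within 1 kb of a start (89.9% for all genes). Of these, 22 lay within 250 bp (78.6%, beside 78.1% for all genes), and the median distance was 78 bp, beside 109 bp for all genes. The median was 44 bp for mitosis, 98 bp for replication and 127 bp for G1/S genes. The ranks of proximal sites were also those of genes in general, with a median at 19.5% of the list in tumor 1 and 15.1% in tumor 2, beside 20.5% and 14.6% for all genes. Distal sites ranked lower, at 46.7% and 33.8%, beside 50.8% and 37.5%.

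**Figure D3:**
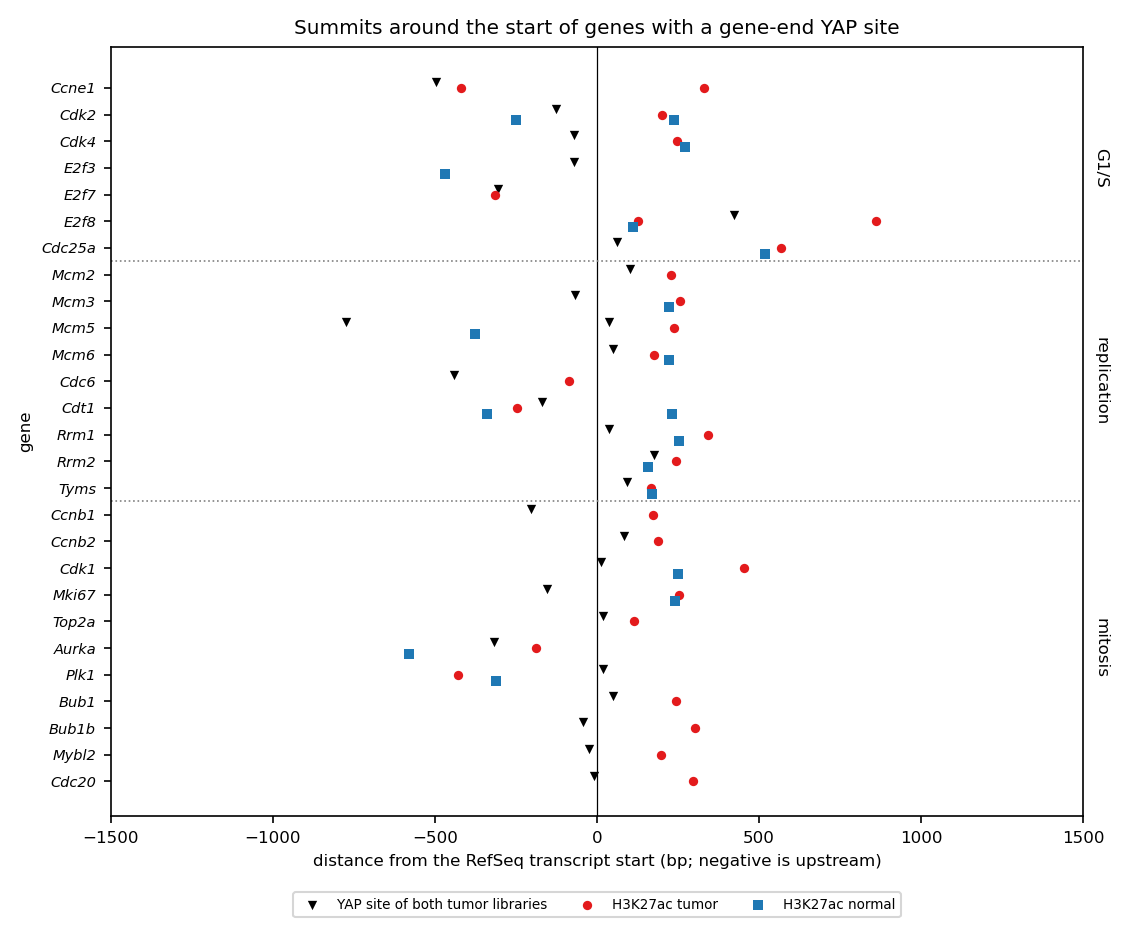
Position of summits relative to the transcript start (horizontal axis, bp, negative upstream). YAP sites of both tumor libraries are black, tumor H3K27ac summits red and normal H3K27ac summits blue. Rows are the members with a RefSeq start and a proximal YAP site, grouped by phase. The 28 proximal YAP sites lie between -773 and 424 bp, and 22 of them within 250 bp of the start.

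H3K27ac was compared between 1 tumor and 1 normal library, so no test was possible. With the tumor list shortened to the length of the normal one, the members had 49 tumor and 46 normal summits, a log2 ratio of 0.09 (counting interval -0.52 to 0.70). The full tumor list had 111. At least 1 summit was assigned to 34 members in the shortened tumor list (background 59.9%), 38 in the full tumor list (background 81.3%) and 30 in the normal list (background 54.3%). By phase, the counts at equal length were 25 tumor and 22 normal for G1/S, 12 and 14 for replication, and 12 and 10 for mitosis genes. More summits in tumor were found at 11 members (background 16.4%) and fewer at 10 (background 20.5%), and the median log2 ratio was 0 for members and for all genes. Ccne1 had the largest excess (3 tumor, 0 normal). The others with more were Ccnd3, E2f1, E2f7, Mcm3, Tyms, Ccnb1, Ccnb2, Top2a, Aurkb and Cdc20, each by 1 summit. Those with fewer, each by 1, were Ccne2, Cdk2, Cdk6, Mcm4, Mcm7, Cdc6, Cdt1, Cdk1, Aurka and Bub1b. Summits in tumor and none in normal were found at 8 members (background 11.5%), and in normal and none in tumor at 4 (background 5.81%), Mcm4, Mcm7, Aurka and Bub1b. At Mcm4, Mcm7 and Aurka a tumor summit within 1 kb of the gene's end was assigned to a neighbour. With the full tumor list, 24 members had more in tumor (background 58.1%) and 6 had fewer (background 7.36%).

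H3K27ac was also counted at the gene ends, whatever gene a summit was assigned to. A tumor H3K27ac summit of the full list lay within 1 kb of an end at 39 members (background 64.5%), 13 in each phase, and at 35 with the shortened list (background 49.9%), 12 G1/S, 12 replication and 11 mitosis genes. A normal summit did at 26 members (background 48.0%), 9 G1/S, 11 replication and 6 mitosis genes. The ends of 15 members carried H3K27ac in the full tumor list and not in the normal list (background 18.1%), 5 of them G1/S, 2 replication and 8 mitosis genes. At equal length they were 11 (background 5.58%), 4, 1 and 6. The 8 mitosis genes were Ccnb1, Ccnb2, Top2a, Aurkb, Bub1, Bub1b, Mybl2 and Cdc20. The reverse, normal but not full tumor, was seen at E2f3 and Ccna2 (background 1.61%), and it depends on the 1 kb limit. At Ccna2 a tumor summit lay 1318 bp from the end and 633 bp from the normal summit. At E2f3 a tumor summit lay 1944 bp from the end, and the normal summit within 1 kb was 2411 bp from the nearest tumor one.

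**Figure D4:**
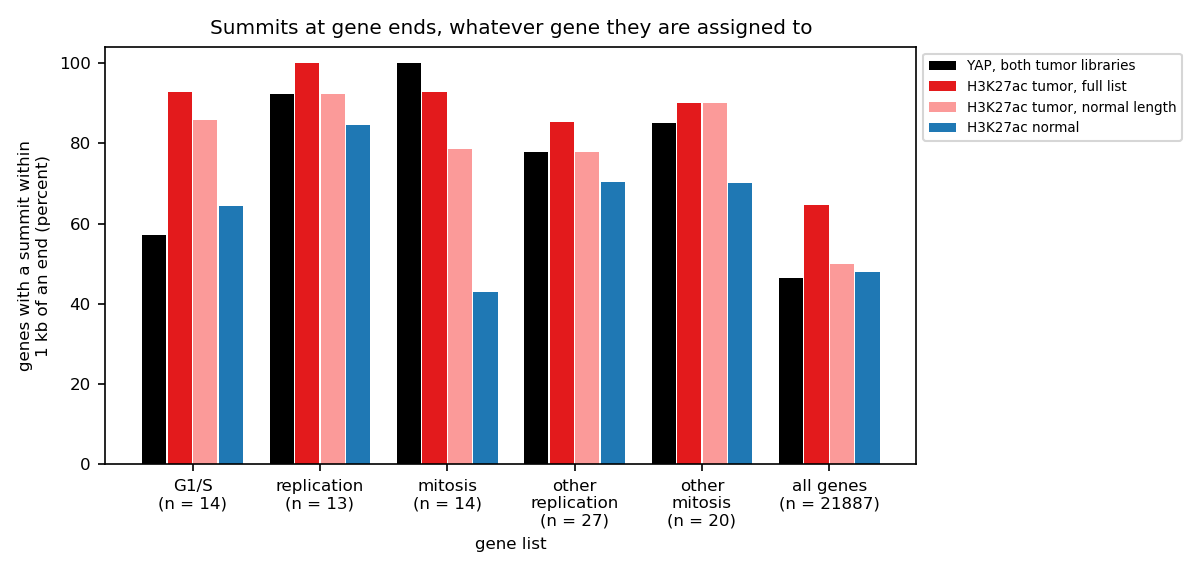
Percent of genes in each list with a summit within 1 kb of either end (vertical axis) for YAP sites of both tumor libraries, tumor H3K27ac in the full and the shortened list, and normal H3K27ac. Mitosis genes reach 14 of 14 for YAP and 6 of 14 for normal H3K27ac, while replication genes have 12 of 13 and 11 of 13. Mitosis genes outside the members have 17 of 20 and 14 of 20.

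These mitosis genes were picked for tumor and no normal H3K27ac within 1 kb of an end. Short tumor and long normal distances from their proximal YAP sites thus largely follow from that choice, and are given as description only. At Ccnb2 the tumor summit was 105 bp from the YAP site and the nearest normal summit 82083 bp away. At Ccnb1 the distances were 376 and 42289 bp, at Bub1 193 and 39468 bp, and at Top2a 96 and 17203 bp. Cdc20 had 306 and 9014 bp, Aurkb 126 and 5127 bp, Bub1b 345 and 11024 bp, and Mybl2 221 and 19981 bp. The summits of Bub1 and Bub1b were not in the shortened tumor list, where the nearest ones lay 38106 and 48719 bp away. Aurka, Cdk1, Mki67 and Plk1 had a summit near the end in both tissues. Of the 13 proximal YAP sites of mitosis genes, 13 had tumor H3K27ac within 1 kb (92.0% of all proximal sites) and 11 with the shortened list (84.6%, beside 84.5% of all proximal sites). In normal epithelium 5 had H3K27ac within 1 kb (38.5%, Wilson 95% interval 17.7 to 64.5%), beside 84.0% of all proximal sites. Each tumor YAP library alone gave the same counts, 13, 11 and 5 of 13 proximal summits. For replication genes the counts were 10 tumor and 9 normal of 11, and for G1/S genes 6 and 5 of 8. The low normal count did not extend to other mitosis genes. Counted by gene ends, a normal summit lay within 1 kb at 6 of 14 mitosis members, but at 14 of 20 mitosis genes outside the members (background 48.0%). Summit lists hold no level, so a missing summit is a peak not called, not a measured absence of the mark.

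Over all 75 sites, 45 (60.0%, Wilson 95% interval 48.7 to 70.3%) had tumor H3K27ac within 1 kb, beside 56.7% of the sites of all genes. Normal H3K27ac was near 29 (38.7%, 28.5 to 50.0%), beside 51.0%. Both tissues had it at 25 sites, tumor alone at 20, normal alone at 4 and neither at 26, beside 44.9%, 11.8%, 6.09% and 37.2% of the sites of all genes. With the shortened tumor list these were 25, 10, 4 and 36 sites. In tumor 1 alone they were 30, 25, 4 and 27 of 86 summits, and in tumor 2 alone 30 of 113 had tumor H3K27ac only and 45 had neither. Of the 43 distal sites, 25 had H3K27ac in neither tissue (58.1%, beside 56.6% of all distal sites). They include 15 of the 26 distal G1/S sites, among them 3 of Cdc25a, and 7 of the 8 distal replication sites. The distance from a proximal YAP site to its H3K27ac summit had a median of 221 bp in tumor and 262 bp in normal epithelium, beside 188 and 202 bp for all genes, among summits within 1 kb.

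The other genes of the pathway also held YAP sites of both tumor libraries, at 57 of 67 genes. The brakes of the cycle, CDK inhibitors, pocket proteins and repressive E2Fs, had one at 13 of 13 genes and a proximal one at 12. E2f6 had 5 sites, Cdkn1b (p27) 4 and Cdkn1a (p21) 3. The E2F dimer partners and DREAM or MuvB subunits had a site at 6 of 7 genes, with 3 at Tfdp2 and 2 at Lin54. The backgrounds for YAP sites are again 60.0% for any site and 41.4% for a proximal one.

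Other replication genes had a site at 19 of 27 (17 proximal), with 5 at Gins2, a subunit of the replicative helicase, and 4 at Cdc7, the kinase that fires origins. Other mitosis genes had one at 19 of 20 (17 proximal), with 3 each at Nek2, Pttg1 and Anln. At equal list length, more and fewer H3K27ac summits in tumor than in normal epithelium were counted at 2 and 3 of the brakes, 0 and 2 of the partners, 5 and 2 of the other replication genes, and 7 and 4 of the other mitosis genes, in backgrounds of 16.4% for more and 20.5% for fewer. Cdkn2b, the inhibitor p15, had 1 tumor and 3 normal summits, and Cenpe, a kinetochore motor, had 3 and 1. At the ends of other mitosis genes, 5 of 20 had tumor and no normal H3K27ac, with the full (background 18.1%) and with the shortened tumor list (background 5.58%).

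E2F letters were found mostly in G1/S and replication promoters and CHR letters mostly in mitosis promoters. Windows of 300 bases were searched on both strands for 33 members and compared with 17492 genes. The E2F letters (TTCCCGC and in its place TTGGCGC, the form TTCGCGC and the form TTGCCGC) were in 17 of 33 members, 6 of 11 G1/S, 8 of 11 replication and 3 of 11 mitosis genes, beside 13.7% of all genes. The CHR letters (TTTGAA or TTCGAA) were in 14, of which 3 were G1/S, 2 replication and 9 mitosis genes, beside 20.2%. CCAAT, the NF-Y box, was in 25 members (7, 8 and 10), beside 42.3%. These are seen above in the Aurka and Bub1b windows, which hold CHR and CCAAT but no E2F letters, and in the E2f3 and Mki67 windows, which hold all 3 kinds. The Rrm1 window has E2F and CCAAT letters, and the Cdk4 window has none of these.

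The TEAD letters GGAATG were in 2 members, Ccnd3 and Mcm3, beside 15.5% of genes. The AP-1 letters TGANTCA were in 0 of 33, beside 8.12%, and the GC box GGGCGG was in 27, beside 49.2%. E2F and GC box letters can overlap by a shared GCGG. A match is a description of letters in the window and not a bound site, and letters outside these 300 bases were not searched.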

How the data were processed

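Each library has 1 deposited summit list, with summits 1 bp wide. Bowtie2, MACS2, GRCm38 and mm10 are named in the submitters' processing notes. Versions, thresholds and control libraries: not given in the sources used here. Each list was called per sample, as every list has its own peak names. The score deposited by the authors is a −log10 value, of a p-value or of a q-value, and served only for ranks and filters inside a list. Depth is unknown, which affects how many summits are called.

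Only summits on chromosomes 1 to 19, X or Y entered. Work was done in Python 3.11.15 with scipy 1.17.1, pandas 2.3.3, numpy 2.4.6 and matplotlib 3.10.9. Gene ends came from a RefSeq table of GRCm38.p6 without strand, and starts from RefSeq promoter windows. Tumor YAP summits were matched within 200 bp, a step tested on simulated data. Neither the tumor nor the normal YAP replicates shared a summit of equal position and score. YAP groups of 2 were compared with an exact permutation test on log2(summits + 1) and on shares. H3K27ac, with 1 library per group, was compared without a test, with the tumor list shortened to 22574. Wilson 95% intervals and the limits for 0 (3 counts) cover counting error only. The members and lists were chosen with earlier results of these data known. A further immune marker is not reported here. All 41 members could be named, and up to 4 genes of each pathway list by their number of sites and up to 4 by H3K27ac difference. Alternatives changed the assignment window, the matching distance, the proximal limit, the score minimum, list length, merging of nearby summits, the libraries included and the grouping.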

Additional observations from a re-analysis of the deposited data

How the results depend on the processing

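The number of members with a YAP site kept between 30 and 38 under every alternative tried except shortening the tumor lists to 1654 summits, which left 1 member and 1 site. The number of sites was 39 with a score of at least 10 and 86 to 113 with 1 tumor library left out. The proximal share was 57.1% with a 10 kb window, 56.4% with a score of at least 10, 100% for the 1 site of the shortened lists, and 34.5 to 46.5% with 1 tumor library left out. The share with tumor H3K27ac within 1 kb was 71.4% with a 10 kb window, 76.9% with a score of at least 10, 100% for the shortened lists, 46.7% with the H3K27ac tumor list at normal length, and 56.6 to 64.0% with 1 tumor library left out. The H3K27ac log2 ratio was 1.25 with full lists, where 24 members had more and 6 fewer summits in tumor, and 5 had fewer after summits within 2 kb were merged. The tumor to normal YAP difference in log2(summits + 1) ranged from 0.79 to 6.64 and that of shares from 0.0605 to 0.304 percentage points, without a change of sign, and with 1 library left out they ranged from 4.64 to 6.64 and from 0.0771 to 0.217. The cause of these shifts was not tested.

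Tumor and normal YAP libraries share replicate numbers. With the replicate block, the differences were 5.64 and 0.147 with an exact sign-flip p = 0.5 each, the smallest that 2 pairs allow. Deviations of same-numbered libraries correlated at 0.0552 over 21887 genes and at 0.131 over the 1464 genes that differed between the normal libraries. Same-numbered libraries also carry the same word in their peak names, but the labels tie a number to no animal or batch, so the block was not used elsewhere. Summit lists carry no signal level, and depth limits which weaker sites were called.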
